A study of Homo sapiens with 6 samples.

Results

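The cadherins and protocadherins are the adhesion genes whose symbols begin with CDH or PCDH. The set held every protein-coding gene of the deposited count table with such a symbol followed by a digit or by the cluster letters A, B or G, with CDH5 left out, which gave 88 of 58735 genes. They fell into 22 cadherins, 13 non-clustered protocadherins, 15 genes of the PCDHA cluster, 16 of the PCDHB cluster and 22 of the PCDHG cluster. All RNA came from ES2, an established human ovarian cancer cell line that the labels call high-grade serous carcinoma. In the siUAP1 group (3 libraries, genotype UAP1 knockdown) the cells were transfected with the UAP1 siRNAs s13338 and s13337, and it is not stated whether these were pooled or used singly. In the control group (3 libraries, genotype WT) the cells received 1 control siRNA with the same lipid reagent. RNA was taken 48 hours after transfection in both groups, so the comparison asks how the RNA of the family differed with lowered UAP1.

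Cadherins are membrane proteins whose extracellular repeats bind calcium and hold neighbouring cells together. The classical ones reach the actin skeleton through catenins inside the cell, and the balance of E-cadherin (CDH1) and N-cadherin (CDH2) is a textbook mark of epithelial and mesenchymal cells. Protocadherins carry similar repeats but other cytoplasmic tails and are best known from neurons. Each clustered protocadherin has its own promoter. In the PCDHA and PCDHG clusters each gene also has its own first exon, spliced to constant exons shared by its cluster. UAP1 makes UDP-N-acetylglucosamine, the sugar donor for N-glycans and for O-linked N-acetylglucosamine, and cadherins are glycoproteins.

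UAP1 itself had 521, 608 and 642 counts in the siUAP1 libraries, against 7341, 9081 and 10848 counts in the control libraries. Its log2 fold change was -4.02 (SE 0.0575) in the fit with pairs described below, and each siUAP1 library lay under each control library. Library totals ran from 23727266 to 25972582 counts in the siUAP1 group and from 21267240 to 25054159 counts in the control group. The 88 genes together took 0.0613%, 0.0544% and 0.0472% of the counts in siUAP1 libraries 1 to 3, against 0.0495%, 0.0472% and 0.0431% in control libraries 1 to 3. The 2 groups overlap in this share, and within each replicate number the siUAP1 library had the higher one.

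Each clustered protocadherin has a promoter of its own. The following stretches are on the plus strand of RefSeq's promoters (build GRCh38.p14). They were taken only from clustered protocadherin promoters that hold CGCTG on the sense strand, so its presence in each was fixed by the choice. Among those promoters, genes of the highest level in each cluster and the lowest PCDHG gene were picked. CGCTG, the core of the conserved sequence element known from clustered protocadherin promoters, is in capitals. The choice of this motif was made after the sequences had been seen.
PCDHGC3, chr5:141475866-141475935: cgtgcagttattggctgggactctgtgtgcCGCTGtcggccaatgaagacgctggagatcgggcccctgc
PCDHGA11, chr5:141420958-141421027: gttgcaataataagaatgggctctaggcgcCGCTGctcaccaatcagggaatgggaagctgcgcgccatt
PCDHGB5, chr5:141397849-141397918: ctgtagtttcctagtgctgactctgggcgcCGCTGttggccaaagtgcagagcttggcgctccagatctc
PCDHGA10, chr5:141412917-141412986: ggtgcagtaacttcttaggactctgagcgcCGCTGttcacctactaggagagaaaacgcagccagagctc
PCDHGA8, chr5:141392554-141392623: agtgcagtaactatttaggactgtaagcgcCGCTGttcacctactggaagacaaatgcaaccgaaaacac
PCDHB5, chr5:141135165-141135205: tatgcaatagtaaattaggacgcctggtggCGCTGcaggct
PCDHB15, chr5:141245300-141245369: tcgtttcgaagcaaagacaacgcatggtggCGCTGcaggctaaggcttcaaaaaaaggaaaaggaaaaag
PCDHA6, chr5:140827883-140827952: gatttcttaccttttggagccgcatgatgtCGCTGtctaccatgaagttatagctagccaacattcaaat
The PCDHB5 stretch ends at the annotated start.

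Of the 88 genes, 70 had a promoter entry, and the 250 bases before each annotated start were searched for CGCTG on both strands, as the only motif. On the sense strand it stood in 20 of 20 PCDHG promoters, 11 of 14 PCDHB promoters (78.6%) and 8 of 13 PCDHA promoters (61.5%). Cadherins had it in 6 of 12 (50%) and non-clustered protocadherins in 4 of 11 (36.4%), against 7756 of 27305 genes with an entry (28.4%). A gene counted if any of its promoter windows held the motif, so more windows gave more chances of a match. The 12 cadherins had 23 windows, the 11 non-clustered protocadherins 15 and the 20 PCDHG genes 25, against 35116 for the 27305 genes. On either strand the shares were 78.6% of the family (55 genes) and 44.8% of all genes. The letters are present in PCDHGC3, with 6423 counts in all, and in PCDHGA8, with 12 counts in all. These are the highest and lowest PCDHG genes by mean FPKM (defined below). Since 20 of 20 PCDHG promoters had the letters, their presence there could not differ with level.

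Within the PCDHG and PCDHA clusters the members share exons in the 3′ part of the transcript. In the PCDHB cluster the annotated exons of each gene fill its whole span. All 22 PCDHG genes contain the same exons of 59 and 89 bases, and 21 of them a common exon of 2033 bases. All 15 PCDHA genes contain their own exons of 59 and 89 bases, and 14 of them one of 2718 bases. The first constant exons of the clusters follow, on the plus strand of build GRCh38, with capitals at the 39 of 59 positions (66.1%) where both have the same base. They are the part of the RNA that cannot tell one member of a cluster from the next.
PCDHG, chr5:141494807-141494865: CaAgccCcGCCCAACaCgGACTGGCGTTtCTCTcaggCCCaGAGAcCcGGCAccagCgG
PCDHA, chr5:140978949-140979007: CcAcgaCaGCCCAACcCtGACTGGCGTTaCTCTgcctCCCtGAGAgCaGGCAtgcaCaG
The deposited counts did not credit such shared reads to every gene. PCDHGC4, which contains these exons, had 0 to 6 counts in a library where PCDHGC3 had 850 to 1392. The sources used here do not say how the authors' counting divided shared reads. The counts of single PCDHG and PCDHA genes are uncertain for this reason.

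ES2 cells expressed a short list of the family. By mean FPKM over the 6 libraries (counts divided by gene length and by library total), CDH2 stood first at 30.5, followed by CDH24 at 15.7, CDH13 at 10.8, PCDHGC3 at 8.003, CDH18 at 3.02 and PCDH15 at 1.56. CDH2, N-cadherin, averaged 31.01 ± 3.38 FPKM in siUAP1 libraries and 30.1 ± 1.76 FPKM in control libraries (SD, n = 3 each). CDH24 is a classical cadherin of the type II group, and CDH13 (T-cadherin) is held in the membrane by a lipid anchor without a cytoplasmic tail. E-cadherin was all but missing, with 1 count for CDH1 in the 6 libraries together, in siUAP1 library 2.

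**Figure D1:**
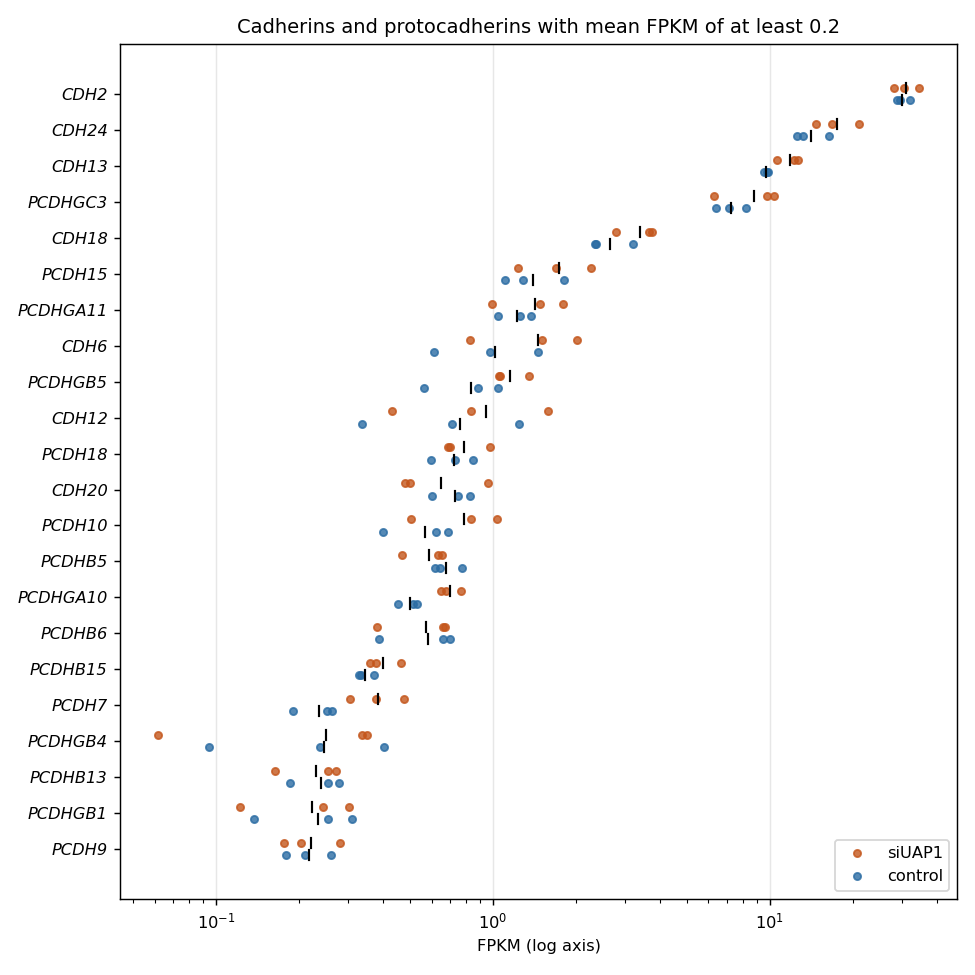
FPKM (log axis) of the 22 members with a mean of at least 0.2 over the 6 libraries, 1 point per library, siUAP1 above control for each gene, with a black tick at each group's mean. CDH2, CDH24, CDH13 and PCDHGC3 lie apart from the rest at means of 8.003 or more.

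At the other end, 12 of the 88 genes had no count in any library. Among them were CDH3 (P-cadherin), CDH11 (OB-cadherin of mesenchyme and bone), the kidney cadherin CDH16, PCDH8, PCDHB1 and both C-type genes of the PCDHA cluster, PCDHAC1 and PCDHAC2. A count of 0 allows a level of up to 0.115 to 0.141 CPM per library at these depths (3 counts, counting error only). In all, 29 genes had fewer than 10 counts over the 6 libraries. The filter on low counts kept 37 genes for testing, of which 9 were cadherins, 6 non-clustered protocadherins, 8 PCDHB, 14 PCDHG and none PCDHA. It asked for 0.401 CPM in any 3 libraries, and 12 of the 37 missed that level in at least 1 library. PCDHGA4, for example, reached it in 3 siUAP1 libraries and 1 control library, so such genes could enter through the group where they were high.

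Members of the family were tested in 2 fits over 15768 genes. With the group as the only term, edgeR's quasi-likelihood test called no member in either direction at an adjusted p of 0.05, where it called 5 genes higher (0.0317%) and 12 lower (0.0761%) of all. DESeq2 and limma-voom without pairs called no member either. Without adjustment, 4 members had p under 0.05 (7.13% of all genes). Libraries with the same replicate number deviated together from their group means, and with that number as a block the test called 9 members higher and none lower of 37. The same fit called 1430 of all genes higher (9.07%) and 1126 lower (7.14%), so that 9 of 37 stands against a background of 9.07%. Below, "rose" and "fell" refer to this fit with pairs, and every such call is absent from the fit without pairs. Nothing in the labels ties the replicates to separate cultures, so the p-values rest on a spread between libraries that may be technical.

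The 9 members that rose were the cadherins CDH6, CDH13, CDH18 and CDH24, the non-clustered protocadherins PCDH7, PCDH10 and PCDH15, and PCDHGC3 and PCDHGB5 of the PCDHG cluster. Their log2 fold changes ran from 0.26 to 0.71. The median log2 fold change of the 37 tested members was 0.28, against -0.003 for all genes tested, and 28 of the 37 were positive, against 49.3% of all genes. In 14 members the siUAP1 library was the higher in all 3 pairs (background 23.4%), and in 2 the lower in all 3 (background 23.6%). Some members behind these figures, such as PCDHGA4, passed the low-count filter in more siUAP1 than control libraries. Others, such as PCDHGC5, passed it in more control libraries. A stricter cut, a mean CPM of at least 5, left 12 members. Their median log2 fold change with the group as the only term was 0.305, against -0.00663 for all genes left. The CPM of the groups did not overlap in 4 members, CDH13, PCDH7, PCDHGB5 and PCDHGA10, all higher in siUAP1 (background 6.74%), and in none with siUAP1 lower (background 5.71%). RNA was measured in bulk, where fewer cells of a type and less RNA per cell cannot be told apart.

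**Figure D2:**
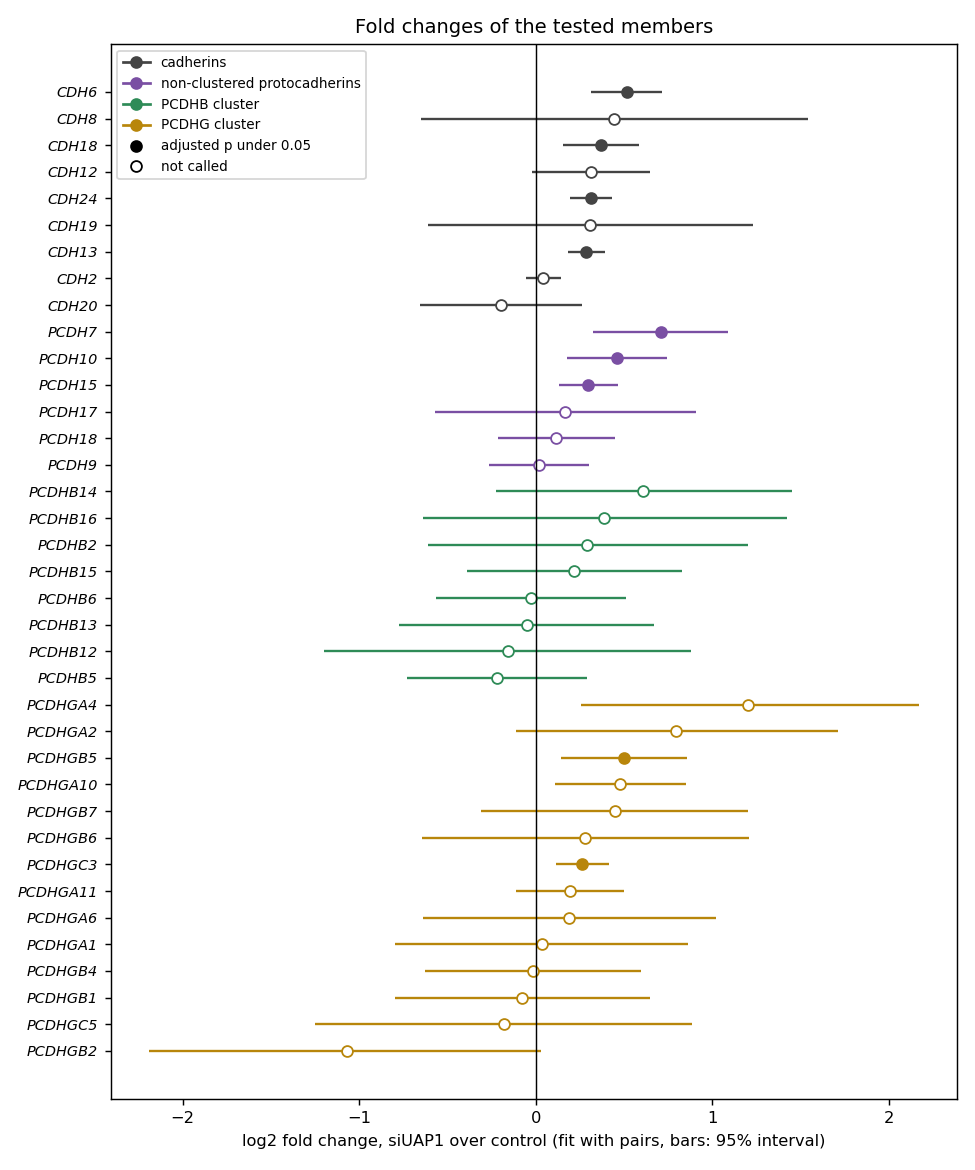
Log2 fold change of siUAP1 over control in the fit with pairs for the 37 tested members, by class, with 95% intervals as bars. The 9 filled points passed an adjusted p of 0.05 and all lie to the right of 0, and the widest intervals belong to members with few counts.

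Among the cadherins, 4 of 9 tested genes rose and none fell (all genes: 9.07% and 7.14%). CDH13 had 143.5, 138 and 119.8 CPM (counts scaled to TMM-adjusted library totals) in siUAP1 libraries 1 to 3, against 109.7, 112 and 107 CPM in control libraries 1 to 3. The lowest siUAP1 library lay above the highest control library. The difference was 1.22-fold (log2 0.29, SE 0.0512, adjusted p = 0.000244, against 0.506 without pairs). CDH24 had 79.5, 55.2 and 63.6 CPM in siUAP1 libraries, against 61.8, 47.6 and 49.7 CPM in control libraries. The groups overlapped, and each siUAP1 library exceeded the control library of its number. It rose by a log2 of 0.31 (SE 0.0569, adjusted p = 0.000302, against 0.766 without pairs).

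CDH6, a type II cadherin of kidney and a surface protein of many ovarian cancers, had 25.3, 18.7 and 10.3 CPM in siUAP1 libraries, against 18.1, 12.2 and 7.62 CPM in control libraries. Both groups showed the same order of replicate numbers, and their ranges overlapped widely. Within the pairs the log2 differences were 0.48, 0.61 and 0.43, and the fitted value was 0.52 (SE 0.0977, adjusted p = 0.000462, against 0.901 without pairs). CDH18, a type II cadherin known from the brain, had 18, 13.6 and 18.4 CPM in siUAP1 libraries, against 11.5, 11.5 and 15.6 CPM in control libraries. Its rise was 1.29-fold (log2 0.37, SE 0.104, adjusted p = 0.0152, against 0.77 without pairs). CDH13, CDH24 and CDH6 were called with any 1 pair left out and also by DESeq2 with pairs. The call of CDH18 was lost without pair 1 (adjusted p = 0.194), without pair 3 (0.0629) and in DESeq2 with pairs (0.125).

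CDH2, the most abundant member, was not called. It had 174, 152 and 140.0 CPM in siUAP1 libraries, against 159.7, 148 and 143 CPM in control libraries. The groups overlapped, and pair 3 had the opposite sign to the other pairs. In the fit with pairs the log2 fold change was 0.04 with a 95% interval of -0.06 to 0.14 (adjusted p = 0.621). Larger changes in either direction lie outside that interval. Without pairs the interval was wider, at -0.196 to 0.291 (adjusted p = 0.991). The other uncalled cadherins were CDH8 (log2 0.44), CDH12 (0.31), CDH19 (0.31) and CDH20 (-0.20), and none of their intervals excluded 0. CDH12, whose brain-type relative CDH18 rose, was higher in siUAP1 in all 3 pairs (log2 0.23, 0.34 and 0.36) with an adjusted p of 0.218.

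**Figure D3:**
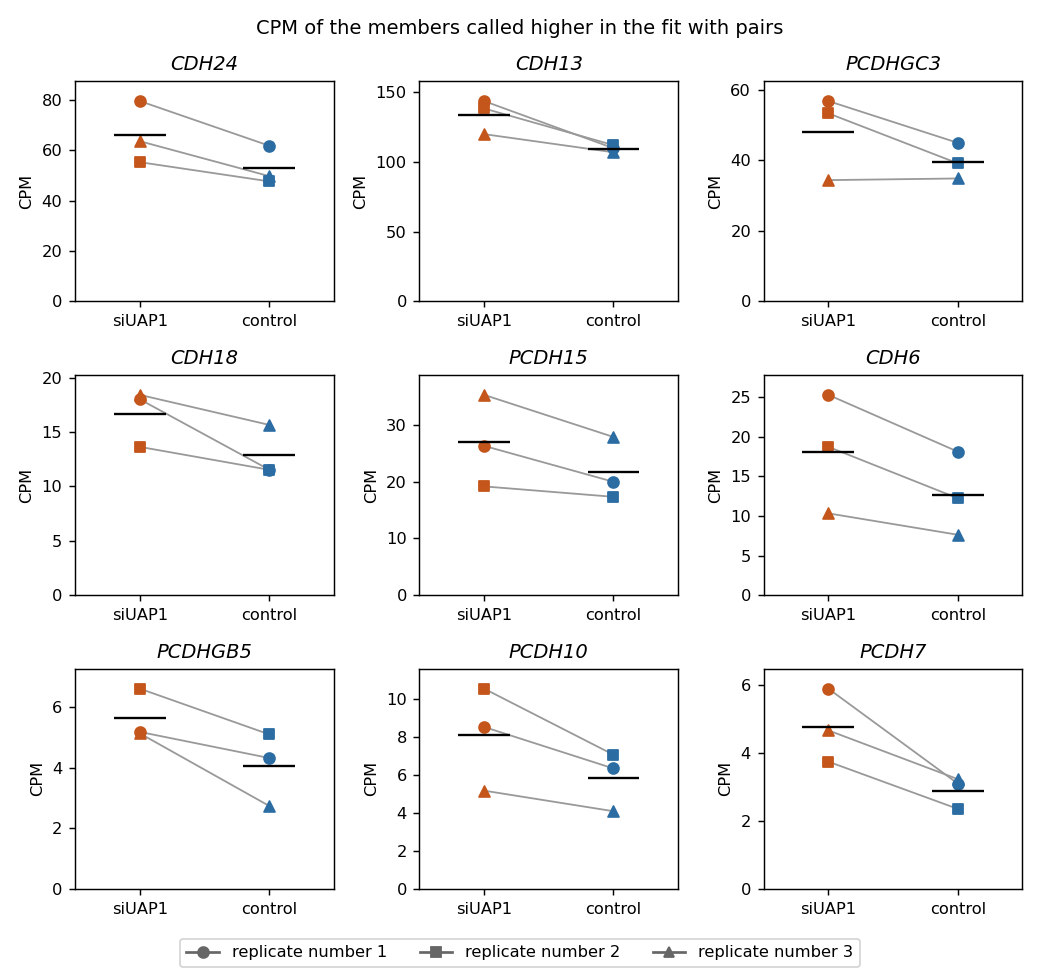
CPM of the 9 members that rose in the fit with pairs, siUAP1 left and control right, each line joining the libraries of 1 replicate number and each bar giving a group's mean. The lines slope down to control in every panel, except that of replicate number 3 in PCDHGC3, and only CDH13, PCDHGB5 and PCDH7 have groups that do not overlap.

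Among the non-clustered protocadherins, 3 of 6 tested genes rose and none fell (all genes: 9.07% and 7.14%). PCDH7, a protocadherin of brain and heart that is also known for binding the phosphatase regulator SET, had 5.90, 3.75 and 4.67 CPM in siUAP1 libraries, against 3.10, 2.36 and 3.24 CPM in control libraries. Every siUAP1 library lay above every control library. The rise of 1.63-fold (log2 0.71, SE 0.187, adjusted p = 0.00955, against 0.546 without pairs) was the largest among the 9 called members. PCDH10, a protocadherin that recruits the WAVE actin regulator, had 8.54, 10.6 and 5.18 CPM in siUAP1 libraries, against 6.35, 7.08 and 4.10 CPM in control libraries. Its groups overlapped, with the library of number 3 the lowest in each, and the log2 fold change was 0.46 (SE 0.138, adjusted p = 0.0228, against 0.882 without pairs).

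PCDH15, a component of the tip links of inner ear hair cells, had 26.3, 19.2 and 35.3 CPM in siUAP1 libraries, against 19.99, 17.3 and 27.9 CPM in control libraries. Number 3 gave its highest library in both groups. The log2 fold change was 0.30 (SE 0.0813, adjusted p = 0.0121, against 0.923 without pairs). All 3 calls depended on single pairs. PCDH7 lost its call in the fits that left out pair 1 (adjusted p = 0.0826) or pair 3 (0.0531), and PCDH15 was called neither without pair 1 (0.0553) nor without pair 3 (0.166). PCDH10 was not called without pair 1 (0.0524), pair 2 (0.18) or pair 3 (0.0684). DESeq2 with pairs gave adjusted p-values of 0.101 for PCDH7, 0.11 for PCDH15 and 0.19 for PCDH10. The neural adhesion genes PCDH9 (log2 0.02), PCDH17 (0.17) and PCDH18 (0.12) were tested and not called.

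In the PCDHG cluster 2 of 14 tested genes rose and none fell, where 9.07% of all genes rose and 7.14% fell. PCDHGC3, a C-type member near the 3′ end of the row of first exons, had 56.8, 53.3 and 34.4 CPM in siUAP1 libraries, against 44.9, 39.1 and 34.8 CPM in control libraries. Pairs 1 and 2 were higher in siUAP1 and pair 3 was level (log2 0.34, 0.45 and -0.02). The fitted log2 fold change was 0.26 (SE 0.0731, adjusted p = 0.014, against 0.898 without pairs), and the call was lost without pair 2 (0.214) and in DESeq2 with pairs (0.12). PCDHGB5 had 5.19, 6.62 and 5.14 CPM in siUAP1 libraries, against 4.33, 5.11 and 2.74 CPM in control libraries. Its groups did not overlap, by a narrow margin, and the log2 fold change was 0.50 (SE 0.173). Its adjusted p of 0.049 (0.837 without pairs) was at the threshold and became 0.0714 without pair 2, 0.384 without pair 3, 0.051 with RLE scaling, 0.0639 with limma-voom and 0.254 with DESeq2, all with pairs.

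The tested members nearest to a call were also PCDHG genes. PCDHGA10 had 5.15, 4.52 and 4.36 CPM in siUAP1 libraries, against 3.43, 3.58 and 3.03 CPM in control libraries. Its groups did not overlap, and the adjusted p was 0.072 (log2 0.48). PCDHGA4 had 25, 27 and 11 counts in siUAP1 libraries, against 7, 11 and 7 counts in control libraries, with a log2 fold change of 1.204 (95% interval 0.26 to 2.17, adjusted p = 0.0785). PCDHGB2 went the other way, with 10, 16 and 0 counts in siUAP1 libraries, against 15, 27 and 6 counts in control libraries (log2 -1.07, 95% interval -2.19 to 0.03, adjusted p = 0.193). The intervals of both are wide because of these low counts. PCDHGA11, the member after PCDHGC3 by level, had 8.66, 10.5 and 5.81 CPM in siUAP1 libraries, against 6.12, 8.10 and 7.29 CPM in control libraries, and was not called (log2 0.19, adjusted p = 0.435). The other uncalled PCDHG genes had log2 fold changes of 0.80 (PCDHGA2), 0.45 (PCDHGB7), 0.28 (PCDHGB6), 0.19 (PCDHGA6), 0.03 (PCDHGA1), -0.01 (PCDHGB4), -0.08 (PCDHGB1) and -0.18 (PCDHGC5).

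None of the 8 tested PCDHB genes was called (all genes, either direction: 16.2%). Their median log2 fold change was 0.10, and 4 were positive. PCDHB5, the highest of them by FPKM, had 54, 57 and 41 counts in siUAP1 libraries, against 45, 68 and 54 counts in control libraries (log2 -0.22, 95% interval -0.73 to 0.29). PCDHB6 had 53, 57 and 32 counts in siUAP1 libraries, against 46, 59 and 31 counts in control libraries (log2 -0.02). The remaining values were 0.61 for PCDHB14, 0.39 for PCDHB16, 0.29 for PCDHB2, 0.22 for PCDHB15, -0.05 for PCDHB13 and -0.16 for PCDHB12. The 95% intervals of all 8 included 0.

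Levels along the locus on chromosome 5 were set per kilobase of exon not shared with another gene, which removes the common 3′ exons from the length but not from the counts. On this scale PCDHGC3 had 17.5, 16.4 and 10.6 CPM per kilobase in siUAP1 libraries, against 13.8, 12.03 and 10.7 in control libraries. The next member was PCDHGA11 with 2.38, 2.90 and 1.60 in siUAP1 libraries, against 1.68, 2.23 and 2.01 in control libraries. PCDHGB5 had 1.94, 2.48 and 1.93 in siUAP1 libraries, against 1.62, 1.91 and 1.03 in control libraries. The highest PCDHB gene, PCDHB5, had 0.778, 0.751 and 0.554 in siUAP1 libraries, against 0.728, 0.92 and 0.761 in control libraries. The PCDHA cluster was close to silent, with 13 of its 15 genes under 10 counts in all. PCDHA6 was its highest by counts, with 36 in the 6 libraries, and PCDHA4 had 29. PCDHGC4 and PCDHGC5, the C-type genes beside PCDHGC3, had at most 0.0899 and 0.224 CPM per kilobase in any library.

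**Figure D4:**
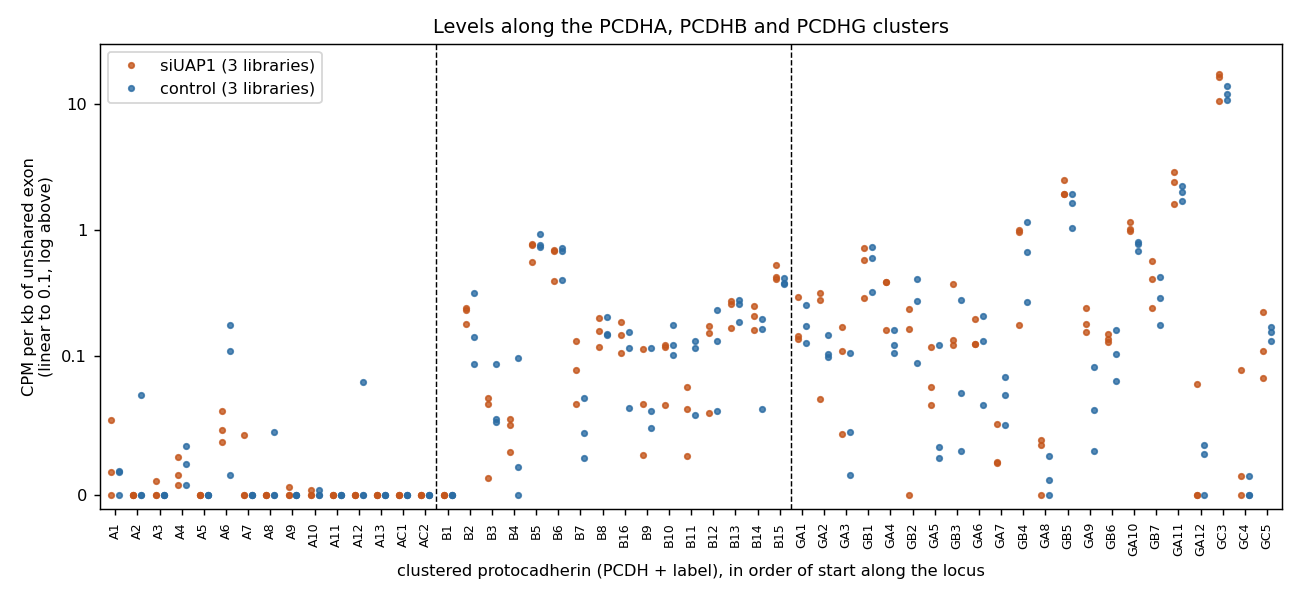
CPM per kilobase of unshared exon (linear to 0.1, log above) for the 53 clustered protocadherins in order of their starts, 1 point per library, siUAP1 left of control for each gene, with dashed lines between the PCDHA, PCDHB and PCDHG clusters. PCDHGC3 lies above all others in every library, and 5 of the 15 PCDHA genes lie at 0 in all 6 libraries.

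The 51 members that were not tested carried few counts. Of the cadherins, CDH15 (muscle cadherin) had 41 counts over the 6 libraries, CDH4 (R-cadherin) 27, CDH17 (intestinal cadherin) 19 and CDH23, the partner of PCDH15 in tip links, 18. CDH9 had 13, CDH7 11, CDH26 4, and CDH10 and CDH22 had 1 each. Of the non-clustered protocadherins, the endothelial PCDH12 had 22, PCDH19 had 6, PCDH1 had 4 and PCDH20 had 2. The count of PCDH20 is uncertain, since 4577 of its 4778 exon bases are also annotated to other exons on the same strand. Untested PCDHB genes ranged from 0 counts (PCDHB1) to 60 (PCDHB8), and untested PCDHG genes from 8 (PCDHGC4) to 64 (PCDHGB3).

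Members also differed between the replicate numbers, within both groups. In the fit with pairs, 13 of 37 tested members (all genes: 45.9%) differed between the numbers, a test added after the data were seen. CDH6 had a log2 fold change of -0.50 for number 2 over 1 and -1.27 for number 3 over 1 (adjusted p = 4.87e-08). CDH12 had 0.87 and -1.0 on the same contrasts (adjusted p = 3.28e-07), with 4.98, 9.42 and 2.59 CPM in siUAP1 libraries 1 to 3, against 4.23, 7.43 and 2.01 CPM in control libraries 1 to 3. Its highest library was number 2 and its lowest number 3 in both groups. PCDH15 ran the other way, with -0.34 and 0.45 (adjusted p = 2.93e-06), and PCDHGB4 had 0.40 and -1.88 (adjusted p = 0.000148). CDH2, CDH8, CDH18, CDH24, PCDH9, PCDH10, PCDH17, PCDHGC3 and PCDHGB2 made up the rest of the 13. CDH13, PCDH7 and PCDHGB5 rose and were not among them. What the numbers stand for is not given in the sources used here.

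**Figure D5:**
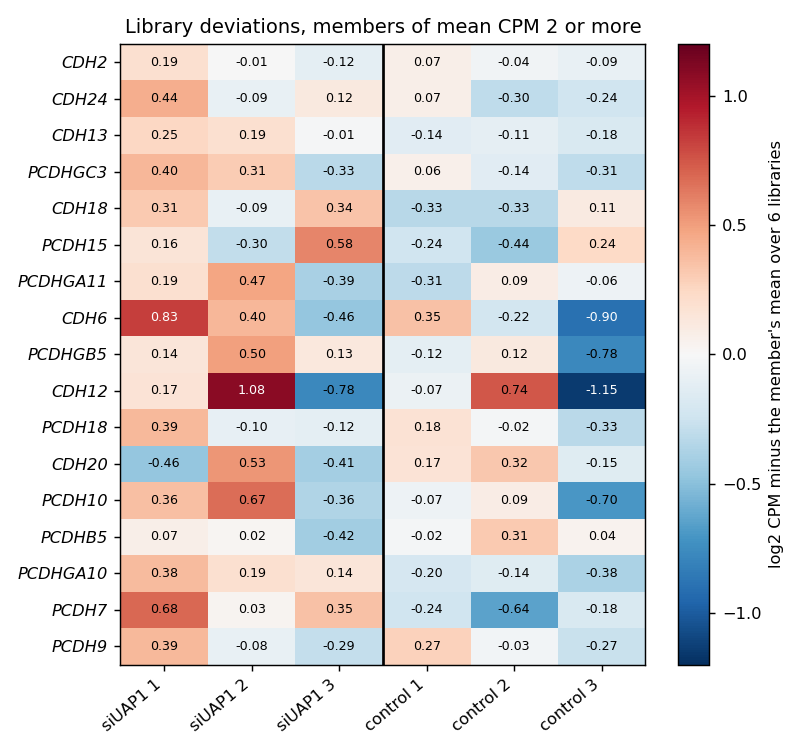
Log2 CPM of each library minus the member's mean over the 6 libraries, for the 17 tested members of mean CPM 2 or more, siUAP1 libraries left and control libraries right. CDH12 ranges from -1.15 to 1.08 with the same order of numbers in both groups, while CDH13, PCDH7, PCDHGB5 and PCDHGA10 have every siUAP1 value above every control value.

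The catenins bind the cytoplasmic tails of classical cadherins. Of 12 tested genes of catenins and their actin linkers, 3 rose and none fell (all genes: 9.07% and 7.14%). Their median log2 fold change was 0.07. CTNND1 (p120), which keeps cadherins at the cell surface, rose by a log2 of 0.22 (SE 0.0461, adjusted p = 0.00128). The actin linker LIMA1 had 0.21 (adjusted p = 0.00453) and the p120 relative PKP4 had 0.17 (adjusted p = 0.0329), the last not called without pair 1 (0.205), pair 3 (0.223) or in DESeq2 with pairs (0.169). The abundant CTNNAL1 (log2 -0.12) and VCL (-0.05) were not called, nor were beta-catenin CTNNB1 (0.06) and alpha-catenin CTNNA1 (0.00). Among 7 tested partners in junctions, F11R (JAM-A, a tight junction protein) rose with 2.57 ± 0.205 FPKM in siUAP1 libraries and 1.60 ± 0.295 FPKM in control libraries (SD, n = 3 each; log2 0.70, adjusted p = 9.89e-05), and its groups did not overlap. It shares 1853 bases of exon with another annotated gene. NECTIN2 rose by a log2 of 0.22 and NECTIN1 fell by 0.20 on the log2 scale, the last not called without pair 1 (0.0519), pair 2 (0.0786) or pair 3 (0.285). The more abundant uncalled partners were NECTIN3 (log2 -0.005) and TJP1 (0.003).

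Of 16 tested genes of the wider cadherin superfamily, 4 rose and none fell (all genes: 9.07% and 7.14%). CLSTN1 (calsyntenin) had 41.7 ± 3.56 FPKM in siUAP1 libraries and 35.9 ± 2.98 FPKM in control libraries (SD, n = 3 each; log2 0.22, adjusted p = 0.00114). CELSR2 and CELSR3, which act in planar cell polarity, had log2 fold changes of 0.33 and 0.21, and the giant cadherin FAT4 had 0.21. These calls were less firm, since CLSTN1 was lost without pair 3 (adjusted p = 0.0531), CELSR2 without pair 2 (0.147), CELSR3 without pair 1 (0.0647) or 3 (0.313), and FAT4 without any 1 pair (0.0788 to 0.148). FAT1 (log2 -0.14) and CLSTN3 (0.19), the most abundant uncalled members, were not called.

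TMTC1 to TMTC4 place O-linked mannose on cadherin repeats, and 1 of the 4 changed (all genes, either direction: 16.2%). TMTC4 had 3.46, 4.02 and 4.26 FPKM in siUAP1 libraries, against 5.11, 5.41 and 7.08 FPKM in control libraries. Every siUAP1 library lay under every control library, and the fall of 0.57 on the log2 scale (log2 -0.57, SE 0.0752, adjusted p = 4.1e-06, against 0.274 without pairs) was called without any 1 pair and in DESeq2 with pairs. TMTC1 (log2 0.48), TMTC2 (-0.01) and TMTC3 (-0.06) were not called. Among 9 genes of proteases that release cadherin ectodomains and tails, 4 rose (all genes: 9.07%). ADAM10, the main sheddase of CDH2 and of several protocadherins, had 9.76, 10.5 and 9.56 FPKM in siUAP1 libraries, against 8.29, 8.34 and 7.86 FPKM in control libraries (log2 0.29, adjusted p = 8.8e-05). ADAM17, which overlaps the gene IAH1 on the other strand, had a log2 fold change of 0.31, and the gamma-secretase subunits APH1B and NCSTN had 0.28 and 0.21. NCSTN was not called without pair 3 (0.106), nor APH1B in DESeq2 with pairs (0.0674). ADAM15 (log2 -0.06) and APH1A (-0.04) were not called.

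Of 8 transcription factors that repress cadherin genes, 1 rose and 2 fell (all genes: 9.07% and 7.14%). SNAI2 (Slug) had 25.2, 12.9 and 16.9 FPKM in siUAP1 libraries, against 16.3, 9.49 and 12.6 FPKM in control libraries. The groups overlapped, and in each pair the siUAP1 library was higher (log2 0.50, adjusted p = 1.24e-06, against 0.771 without pairs). ZEB1 had 10.1, 8.35 and 8.67 FPKM in siUAP1 libraries, against 11.4, 10.3 and 10.96 FPKM in control libraries, without overlap (log2 -0.27, adjusted p = 0.000509). TCF3 had a log2 fold change of -0.20 and lost its call without pair 3 (0.075), and TWIST1 (-0.15) and TWIST2 (0.15) were not called. CDH1, their best known target, stayed at 1 count in all.

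CTCF and cohesin bring clustered protocadherin promoters to their enhancers. Of 12 genes of this machinery and of silencers of the clusters, 4 fell and none rose (all genes: 7.14% and 9.07%). The cohesin subunits RAD21 and STAG2 had log2 fold changes of -0.17 and -0.18, the cohesin loader NIPBL -0.20 and the cohesin release factor WAPL -0.21. All 4 lost the call without pair 3 (adjusted p = 0.149 to 0.273), and STAG2 also without pair 2 (0.0517) and NIPBL in DESeq2 with pairs (0.0501). CTCF itself had 5.62 FPKM in siUAP1 libraries and 5.71 FPKM in control libraries (log2 -0.02), and the abundant SMC3 (-0.06) and SMC1A (-0.04) were not called. Of 13 genes of protocadherin effectors, mostly the WAVE actin regulator and adhesion kinases, WASF2 rose (log2 0.35, adjusted p = 9.22e-06) and CYFIP2 (-0.39), ABI2 (-0.17) and BRK1 (-0.16) fell. The falls were not called without pair 3 (adjusted p = 0.0597, 0.549 and 0.366 in the same order), ABI2 also without pair 2 (0.0519) and BRK1 without pair 1 (0.21). PTK2 (log2 0.03) and ABI1 (-0.06), the most abundant uncalled members, were not called. DESeq2 with pairs did not call CELSR2, CELSR3, FAT4, NECTIN1, ABI2 or BRK1. Without pairs no gene of these partner lists was called. Since the use of strand is not stated, reads of a gene on the other strand could be counted where exons overlap. Among the called partner genes, those that overlapped a gene of 60 or more counts in this way were CLSTN1 (PIK3CD), NECTIN1 (AP003393.1), ADAM10 (AC018904.1), ADAM17 (IAH1 and AC073195.1), NCSTN (COPA), ZEB1 (ZEB1-AS1), RAD21 (UTP23), STAG2 (TENM1), CYFIP2 (ADAM19) and ABI2 (RAPH1).

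Markers gave a mixed picture of the labelled cell type. Of 7 serous ovarian markers, MUC16 and FOLR1 were at 0 in all libraries, EPCAM and MSLN were too low to test, and PAX8 had 0.197 FPKM in siUAP1 libraries and 0.136 FPKM in control libraries. KRT7 alone was abundant, with 123 FPKM in siUAP1 libraries and 81.7 FPKM in control libraries. The 3 serous markers tested were PAX8, KRT7 and WT1, of which 1 rose in the fit with pairs and none fell. Epithelial markers summed to 153 to 256 FPKM in siUAP1 libraries and 116 to 160 FPKM in control libraries, nearly all from KRT8 and KRT18, which overlap each other on opposite strands. All 3 of 10 that could be tested rose in the fit with pairs (all genes: 9.07% rose, 7.14% fell), and GRHL2 was at 0. Fibroblast markers summed to 628 to 773 FPKM in siUAP1 libraries and 536 to 696 FPKM in control libraries, with 4 of 6 tested higher, VIM lower and DCN at 0. Neural markers summed to 3.58 to 6.14 FPKM in siUAP1 libraries and 2.80 to 4.95 FPKM in control libraries, with MAP2 and SYT1 higher of 7 tested and S100B at 0. Endothelial markers, nearly all TIE1, summed to 54.1 to 60.6 FPKM in siUAP1 libraries and 52.7 to 60.1 FPKM in control libraries, with none of 4 called. Leukocyte markers summed to at most 0.446 FPKM in siUAP1 libraries and 0.25 FPKM in control libraries, with CD3E and ITGAM at 0. The part of these marker differences in the cadherin and protocadherin results was not tested.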

How the data were processed

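RNA-seq libraries of ES2 cells (3 siUAP1, 3 control) were grouped by their titles. The authors deposited a table of whole-number raw counts per gene and a table of FPKM, each library's scaled to a total of 0.988 to 1.03 times that of its counts. The submitters' processing notes name DESeq2 and the genome build GRCh38.p12. How reads were aligned and counted, and whether strand was used, is not given in the sources used here. Clustered, overlapping and antisense genes are therefore uncertain. All 88 members' deposited lengths equalled the union of their GENCODE 29 exons. Promoter sequences are RefSeq's (GRCh38.p14) and exon sequences GENCODE's.

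The deposited counts were tested with edgeR's quasi-likelihood test (edgeR 4.0.16, R 4.3.3) after TMM scaling and filterByExpr (minimum count 10), with the group as the only term and p-values adjusted by Benjamini-Hochberg over 15768 genes (threshold 0.05). Standard errors are the log2 coefficient over the root of F, and 95% intervals use the fit's degrees of freedom. The script was tested on simulated counts. The replicate number in the titles was added as a block in an alternative fit. Libraries of the same number correlated at 0.552, 0.454 and 0.584 in their deviations from group means (different numbers: -0.434 to -0.0893), which was taken as pairing. Deviations within a group cancel out, so positive same-number values pull the different-number values negative. The latter add no separate support for pairing. The library names also share a code within a number. Values of single pairs use log CPM with a prior count of 2. A chi-square test found every pair of replicates different (23.9 to 41.3 per degree of freedom), and each counts as 1 sample.

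Alternatives were RLE scaling, totals without TMM, other filters, protein-coding genes alone, DESeq2 1.42.0, limma-voom (limma 3.58.1), limma on log2 FPKM and leaving out libraries or pairs. Members with a call in either fit, the 6 of highest FPKM and the 3 of smallest p among the uncalled are given per library, and partner lists by up to 4 called members plus the 2 most abundant uncalled, with a few other uncalled partners (CTNNB1, CTNNA1, CTCF, TMTC1 to TMTC3) added as context. The partner genes and CDH12, PCDHGA11, PCDHB5 and PCDHB6, where given library by library, were chosen after their values were seen. The members and lists were chosen with earlier results of these data known.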

Additional observations from a re-analysis of the deposited data

How the results depend on the processing

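Over all genes, the fit without pairs called 17 genes. The count became 273 without the low-count filter, 165 with DESeq2, and 2, 3 and 1 with limma on log2(FPKM + 1) and log2(FPKM + 0.1) at a mean FPKM of at least 1 and on log2(FPKM + 1) without a filter. Leaving out 1 library gave 1 to 3. With the replicate number as a block it was 2556 (edgeR), 2539 (RLE scaling), 2545 (limma-voom) and 1311 (DESeq2), and 1195, 1987 and 2204 with 1 pair left out. Among the tested members the call depended on the block. The edgeR fits with and without it tested 37 members, and members with an adjusted p ranged from 8 to 76 over all settings. In all settings without the block 0 were called higher. With the block 9 were called higher, and 8 each with RLE scaling and limma-voom. DESeq2 with the block called 3 (16 members had an adjusted p), and leaving 1 pair out gave 4, 5 and 6. No setting called a member lower. The cause was not tested. Of the named genes' fold changes, 2 turned negative when a library was left out of the fit without pairs, with no call in either: CDH2 ranged from -0.0407 (without siUAP1 replicate 1) to 0.117, and CELSR3 from -0.0274 (without control replicate 3) to 0.381. Across named genes, 684 alternative values kept direction and side of the threshold and 192 passed it where the fit without pairs had not. The 13 members that differed between replicate numbers were also 13 with RLE scaling and were 18 with protein-coding genes alone. Low counts left none of the 15 PCDHA, 8 of the 16 PCDHB and 14 of the 22 PCDHG genes tested.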
